A study of Mus musculus with 12 samples.

Results

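The genes described here are 10 regulators of spermatogonial stem cells, read in the RNA of gonocytes, the male germ cells of the newborn testis from which those stem cells arise. They are Gfra1, Ret, Etv5, Lhx1, Id4, Zbtb16, Sall4, Nanos2, Nanos3 and Eomes. They were chosen by name, and each symbol matched 1 of the 35666 genes in the deposited table through its Ensembl identifier in GENCODE M21. The cells came from testes of mice carrying the Mvh-Venus transgene, a fluorescent reporter of germ cells, at postnatal day 0 (P0). The heterozygous (het) group was Morc1 (+/-) and the knockout (KO) group was Morc1 (-/-), with 3 libraries in each, so the comparison has no wild-type arm and both groups carry the reporter and at least 1 mutant Morc1 allele. MORC1 is a germ cell ATPase known for silencing transposable elements (TEs), and the series addressed what its loss does to gonocyte chromatin and transcripts. The P3 libraries named in the labels were not analysed here. Whether a library pools several animals and whether the libraries are from separate litters are not given in the sources used here, so that p-values measure only the spread between these libraries.

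Spermatogonial stem cells are kept in balance between self-renewal and differentiation by glial cell line-derived neurotrophic factor (GDNF), which somatic cells of the testis secrete. GDNF binds the co-receptor GFRA1 on the germ cell surface, the complex activates the receptor tyrosine kinase RET, and the signal raises a set of transcription factors that includes ETV5 and LHX1. Alongside this pathway act nuclear regulators such as ID4, ZBTB16 (PLZF) and SALL4, and the RNA-binding proteins NANOS2 and NANOS3, which repress mRNAs through the CCR4-NOT deadenylase. At birth most gonocytes are quiescent and only later settle as stem cells or differentiate.

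None of the 10 genes differed between KO and het by more than the spread between libraries. All 10 had a mean of at least 10 normalized counts, the level required for testing, and each group would have passed that level without the other. With limma across 26005 genes, 0 of the 10 had an adjusted p under 0.05, where 0.473% of all tested genes did (0.431% higher and 0.0423% lower in KO). DESeq2 and edgeR on the recovered reads also called 0 of them, and 0 of the 10 had an unadjusted limma p under 0.05, against 6.86% of all tested genes. The libraries of the genotypes overlapped for every one of the 10, while they were apart for 12.7% of tested genes. The estimates fell on both sides of no change, 5 above and 5 below, with a median log2 fold change of -0.01 beside -0.02 over all tested genes. What the genes did share was a high value in KO replicate 2: 9 of the 10 had their highest value of all 6 libraries there, as did 20.6% of tested genes. KO replicate 3 had the lowest value for 5 of the 10, beside 24.0% of tested genes.

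**Figure D1:**
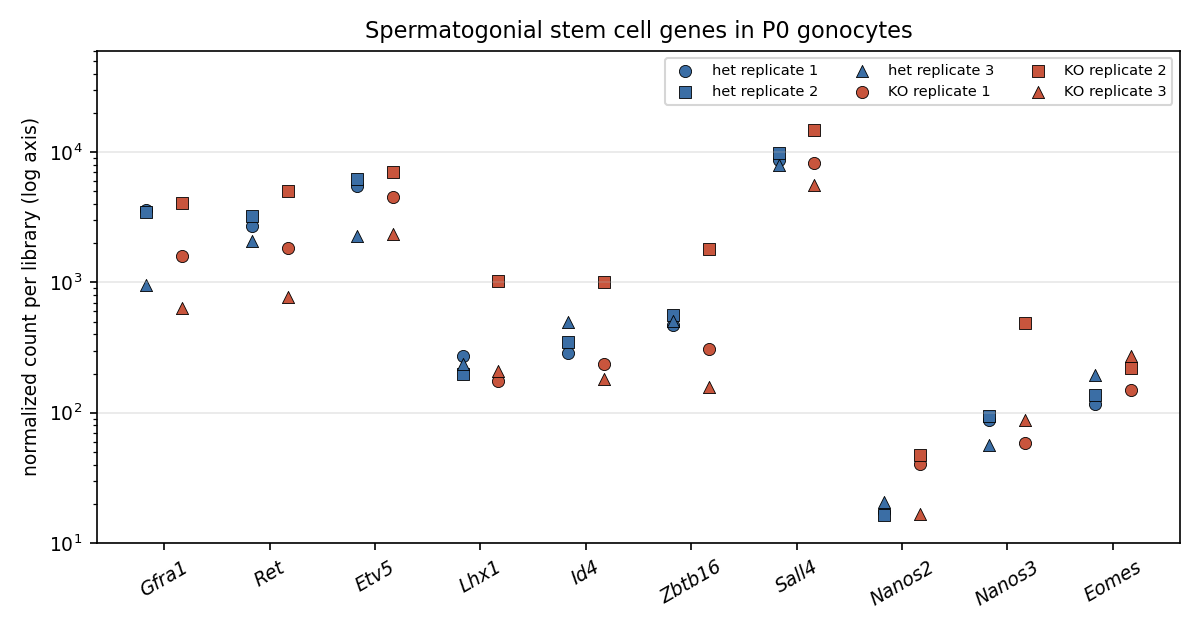
Normalized counts (log axis) of the 10 genes in each library. Blue symbols are het and red symbols are KO libraries, with circles, squares and triangles for replicates 1, 2 and 3. The red square, KO replicate 2, is the top symbol for every gene except Eomes.

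The libraries held 28363683 to 32816861 reads counted in genes. Morc1 itself, the check of the labels, had a mean of 6286 ± 1874 normalized counts in het and 1499 ± 255 in KO (SD, n = 3), with no overlap between the genotypes (limma log2 fold change -2.03, SE 0.27, adjusted p 0.0109). Which part of the gene the mutant allele lacks is not given in the sources used here. Germ cell markers were abundant in every library: the 8 matched markers, among them Ddx4 and Dazl, summed to between 146105 and 210226 normalized counts in het and between 146308 and 217811 in KO. The lowest sums were those of het replicate 3 and KO replicate 2. Markers of other testis cells were present as well. In particular, 6 Leydig cell markers summed to 25365 normalized counts in het replicate 3 and to between 630.3 and 1162 in the other 5 libraries. The 10 Sertoli cell markers summed to 40826 in that library, to 25534 and 18470 in het replicates 1 and 2 and to between 13165 and 20161 in KO.

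The receptor genes were at a high level in gonocytes and varied widely between libraries. Gfra1, which encodes the GDNF co-receptor (ENSMUSG00000025089, GRCm38 chromosome 19 from 58235604 to 58455909, minus strand), had 3597, 3485 and 959 normalized counts in the het libraries, given here and below in the order of replicates 1, 2 and 3. In the KO libraries it had 1603, 4058 and 633. Low values thus occurred in both genotypes, in het replicate 3 and in KO replicate 3, and the het libraries alone spanned a 3.75-fold range. The means were 2680.2 ± 1492 in het and 2098 ± 1765 in KO (SD, n = 3), with a limma log2 fold change of -0.51 (SE 0.65, 95% interval -1.97 to 0.94, adjusted p 0.937). Gm16277, annotated on the opposite strand across exons of Gfra1, had a mean of 5.05 normalized counts, in libraries that do not mark strand.

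Ret, the signalling kinase that GFRA1 recruits (ENSMUSG00000030110, chromosome 6 from 118151745 to 118197718, minus strand), had 2725, 3238 and 2086 normalized counts in het and 1838, 5027 and 768 in KO. KO replicate 2 lay above and KO replicates 1 and 3 lay below all 3 het libraries, and the highest KO value was 6.54 times the lowest. The means were 2683 ± 577 in het and 2544 ± 2215 in KO (SD, n = 3). The limma log2 fold change, fitted to the log2 values of single libraries, was -0.46 (SE 0.54, 95% interval -1.66 to 0.74, adjusted p 0.930). Without KO replicate 2 the estimate for Ret became -1.15 and that for Gfra1 -1.18, with limma adjusted p-values of 0.391 and 0.580 in turn, and without KO replicate 3 they became 0.20 and 0.15. The sign of both estimates therefore depended on KO replicate 3, while leaving out KO replicate 2 changed their size and not their sign. Without KO replicate 2, 3 of the 10 genes had an unadjusted limma p under 0.05, all lower in KO (Ret, Zbtb16 and Id4), beside 9.03% of tested genes in either direction and 3.9% lower, and 0 passed after adjustment. Without KO replicate 3, all 10 estimates were above 0, and 1 of the 10 (Nanos2, limma log2 fold change 1.25, adjusted p 0.914) had an unadjusted p under 0.05, beside 5.32% of tested genes in either direction. Since KO replicate 2 was the highest and KO replicate 3 often the lowest library for these genes, leaving either out moves the estimates in a known direction, and these counts are descriptions.

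The transcription factor genes that GDNF is known to raise also had their highest value in KO replicate 2, while the lowest KO library was replicate 3 for Etv5 and replicate 1 for Lhx1. Etv5, an ETS-family factor needed for stem cell maintenance (ENSMUSG00000013089, chromosome 16 from 22381309 to 22439719, minus strand), had 5544, 6199 and 2285 normalized counts in het and 4509.9, 7041 and 2337 in KO. The low libraries were replicate 3 of each genotype, as for Gfra1, and the means were nearly equal at 4676 ± 2096 and 4629 ± 2354 (SD, n = 3; limma log2 fold change -0.03, SE 0.45, 95% interval -1.02 to 0.96, adjusted p 0.994). Lhx1, a LIM-homeobox gene (ENSMUSG00000018698, chromosome 11 from 84518284 to 84525535, minus strand), had 275, 197 and 235 in het and 174, 1017 and 211 in KO. A single library made the KO mean of Lhx1 the higher one, 467 ± 476 against 236 ± 38.8 (SD, n = 3; limma log2 fold change 0.52, SE 0.57, 95% interval -0.75 to 1.78, adjusted p 0.926). Without KO replicate 2 its limma log2 fold change turned to -0.28 (adjusted p 0.799).

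Among the nuclear regulators, Zbtb16 had the widest spread. It encodes PLZF, a BTB zinc finger repressor required for stem cell self-renewal (ENSMUSG00000066687, chromosome 9 from 48654297 to 48836222, minus strand). Its het libraries were close together at 475, 563 and 508 normalized counts, whereas the KO libraries had 311, 1812 and 159. The highest KO value was thus 11.4 times the lowest, against 1.19 times in het, and no KO library lay within the het range. The means were 515 ± 44.6 in het and 761 ± 914 in KO (SD, n = 3), while the limma log2 fold change was -0.20 (SE 0.70, 95% interval -1.75 to 1.35, adjusted p 0.981), so mean and log estimate differed in sign. The edgeR and DESeq2 estimates, which follow the mean more closely, were both 0.56, with adjusted p-values of 0.973 from edgeR and 1.0 from DESeq2.

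Id4, whose product blocks E proteins from binding DNA and marks cells with stem cell activity (ENSMUSG00000021379, chromosome 13 from 48261228 to 48266026, plus strand), had 287, 352 and 499 normalized counts in het and 237, 1003 and 180.3 in KO. As for Zbtb16, KO replicate 2 was above and both other KO libraries were below every het library. The means were 379 ± 109 in het and 474 ± 460 in KO (SD, n = 3). The limma log2 fold change, fitted to the log2 values of single libraries, was -0.08 (SE 0.56, 95% interval -1.31 to 1.16, adjusted p 0.992), so mean and log estimate again differed in sign. A330033J07Rik, antisense to Id4 and overlapping its exons, had a mean of 137 normalized counts. The low-input cDNA kit named in the labels does not mark strand, so reads of this pair could not be told apart where they overlap.

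Sall4, a zinc finger gene of germ cells and early embryos (ENSMUSG00000027547, chromosome 2 from 168748332 to 168767943, minus strand), was the most abundant of the 10. It had 8759, 9804 and 8018 normalized counts in het and 8281, 14919 and 5622 in KO. The het libraries lay between KO replicates 2 and 3. With means of 8860.4 ± 897 and 9607 ± 4788 (SD, n = 3), limma put the log2 fold change of Sall4 at 0.00 (SE 0.31, 95% interval -0.69 to 0.70, adjusted p 0.999).

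The NANOS genes were low. Nanos2, a male germ cell RNA-binding protein that holds stem cells undifferentiated (ENSMUSG00000051965, chromosome 7 from 18987400 to 18988962, plus strand), had 17.2, 16.4 and 20.5 normalized counts in het and 40.6, 47.5 and 16.7 in KO. KO replicates 1 and 2 were above all het libraries and KO replicate 3 was within their range. These values rest on 17 to 46 reads per library, and the means were 18.0 ± 2.16 and 34.9 ± 16.2 (SD, n = 3; limma log2 fold change 0.80, SE 0.58, 95% interval -0.50 to 2.09, adjusted p 0.885). The interval includes both no change and a 4-fold rise. Gm45058, antisense to Nanos2, overlaps its exons, and without strand marking their reads could not be told apart there. Nanos3, which protects germ cells from death after they are specified (ENSMUSG00000056155, chromosome 8 from 84173731 to 84185217, minus strand), had 87.7, 94.7 and 56.6 in het and 58.4, 488 and 87.2 in KO. KO replicate 2 stood at 5.15 times the next highest library, and the other 5 libraries overlapped. The means were 79.7 ± 20.3 and 211 ± 240.0 (SD, n = 3; limma log2 fold change 0.80, SE 0.68, 95% interval -0.71 to 2.31, adjusted p 0.896), and without KO replicate 2 the limma estimate was -0.12 (adjusted p 0.946).

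Eomes, a T-box gene of a small subset of stem cells (ENSMUSG00000032446, chromosome 9 from 118478212 to 118486132, plus strand), was the exception in its pattern. It had 116, 137 and 195 normalized counts in het and 148, 219 and 271 in KO, so that its highest value was in KO replicate 3, the library in which 5 of the other genes had their lowest. The means were 149.5 ± 40.8 and 213 ± 61.7 (SD, n = 3; limma log2 fold change 0.50, SE 0.34, 95% interval -0.27 to 1.27, adjusted p 0.875). Its estimate stayed above 0 whichever library was left out, between 0.30 and 0.74, and so did that of Nanos2, between 0.52 and 1.25, and neither passed the test in any of these fits. Gm33460, antisense to Eomes, had a mean of 19.3 normalized counts.

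**Figure D2:**
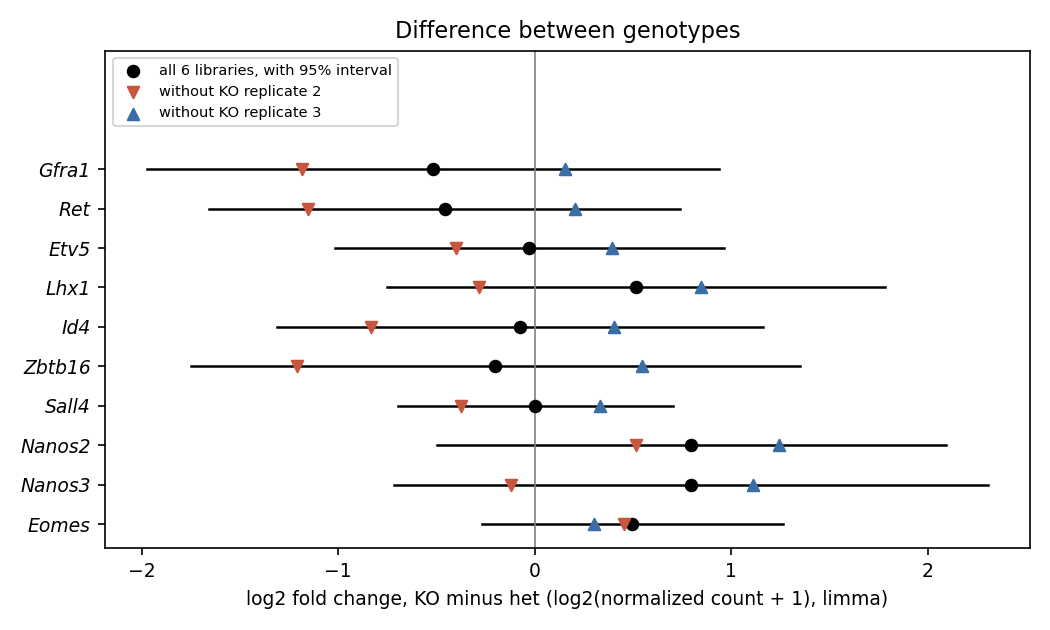
Limma log2 fold changes (KO minus het, on log2(normalized count + 1)) of the 10 genes. Black points with bars are estimates from all 6 libraries with 95% intervals, red and blue triangles are estimates without KO replicate 2 and without KO replicate 3. Every interval includes 0, for 8 genes the estimate lies below 0 once KO replicate 2 is left out, and for all 10 it lies above 0 once KO replicate 3 is left out.

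Levels were compared between genes after dividing by the summed exon length of each gene. On this scale of normalized counts per kb, the het order ran from Sall4 (1601 ± 162, SD, n = 3) and Etv5 (1139.7 ± 511) through Gfra1 (489 ± 272) and Ret (397 ± 85.3) to Id4 (98.6 ± 28.3), Zbtb16 (97.6 ± 8.43), Nanos3 (86.2 ± 22.0), Lhx1 (57.9 ± 9.53), Eomes (36.0 ± 9.82) and Nanos2 (11.5 ± 1.38). The het ranges of neighbours in this order did not overlap for Ret over Id4, Lhx1 over Eomes and Eomes over Nanos2, and overlapped for the other 6 pairs of neighbours. The receptors, Etv5 and Sall4 therefore formed an upper set, above the other 6 genes in every het library. Within single libraries, Sall4 per kb was above Etv5 in 6 of 6 libraries, while Id4 was above Zbtb16 in 3 of 6.

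The spread among KO libraries was the main feature of these genes. The highest KO library was at least 5 times the lowest for 6 of the 10 (Gfra1, Ret, Id4, Zbtb16, Nanos3 and Lhx1), beside 11.3% of all tested genes. All 6 belong to the 9 with a mean of at least 100, a level at which 1.39% of tested genes had such a range. Nanos3 reached that mean only through KO replicate 2, as its means were 79.7 in het and 72.8 in KO without that library. In het, 0 of the 10 had a range that wide, beside 7.95% of tested genes, and 2 (Gfra1 and Etv5) spanned at least 2-fold. This het share, like the SD medians below, was taken over tested genes of all levels and not at a mean of at least 100. Het replicate 3 was the lowest het library for 5 of the 10, beside 41.8% of tested genes. The median SD of log2 values within KO was 1.33 for the 10 genes and 0.45 for all tested genes, and within het it was 0.35 for both. KO replicate 2 was at least 2 times KO replicate 3 for 9 of the 10, beside 16.1% of tested genes, with ratios from 2.65 for Sall4 to 11.4 for Zbtb16. KO replicate 2 was also above the het mean for all 10, from 1.47 times for Eomes to 6.12 times for Nanos3.

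KO replicate 2 differed from the other KO libraries in further measures. It had 13.1 reads on TE copies per 100 reads in genes, against 8.95 and 9.41 in KO replicates 1 and 3 and 6.02 to 8.71 in het. Its sum over 8 blood and macrophage markers was 1946 normalized counts, against 1202 and 1188 in the other KO libraries and 1001 to 1572 in het, a sum in which the globin genes Hba-a1 and Hbb-bs took 862 and 459. Of the 8, only 1 had its highest value there, beside 20.6% of all tested genes. KO replicate 2 also had the lowest germ cell marker sum in KO, 146308. Its Sertoli marker sum of 15712 lay between those of KO replicates 1 and 3, its Leydig marker sum of 1138 was close to that of KO replicate 3, and its sum over 5 neural markers, which bear on Ret and Gfra1 because neurons express both, was the lowest of all libraries at 1033. None of these markers was at 0 in every library, and the part of any of these cell types in the result was not tested. In bulk RNA, more cells of a kind and more RNA per cell cannot be told apart.

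**Figure D3:**
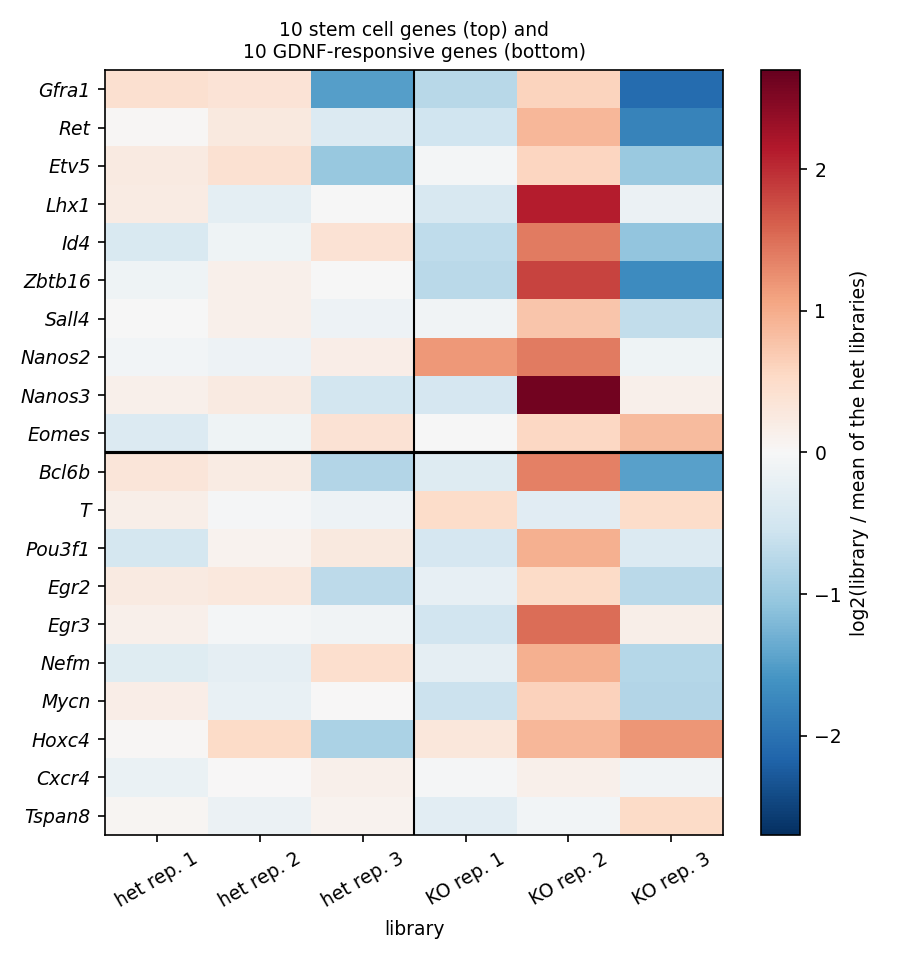
Log2 ratio of each library to the mean of the 3 het libraries for the 10 stem cell genes (above the line) and 10 genes known to respond to GDNF (below). Red is above and blue below the het mean. The column of KO replicate 2 is red for all 10 stem cell genes and for 8 of the 10 GDNF-responsive genes, and that of KO replicate 3 is blue for 8 of the 10 stem cell genes.

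The other genes of the pathway were read from lists chosen by function. Across 9 such lists with 133 tested genes, 0 passed an adjusted p under 0.05 in either direction with limma, edgeR or DESeq2, and 6 of the 133 had an unadjusted limma p under 0.05, a smaller share than the 6.86% of all tested genes. By log2 fold change 61 lay above and 72 below 0. Among 10 GDNF family ligands and receptors, 0 were called, 1 was above and 9 were below 0, with a median log2 fold change of -0.28. Genotypes were apart for 1 of the 10, lower in KO, beside 12.7% of all tested genes in either direction. Het replicate 3, the library with the highest Sertoli and Leydig marker sums, was the highest library for 3 of the 10, beside 21.4% of all tested genes. The estimates ran from 0.18 for Gfra4, a co-receptor for persephin, to -1.54 for Gfral, the receptor of GDF15, which had 101 normalized counts in het replicate 3 and at most 13.4 in any other library (limma adjusted p-values of 0.945 and 0.888). Gdnf itself had 271, 188 and 358 normalized counts in het and 195, 271 and 102 in KO. Its values thus overlapped between the genotypes.

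Of 23 genes that carry the RET signal, 14 were above and 9 below 0, with a median of 0.06. The lowest estimate was that of Pik3r1, the regulatory subunit of PI3 kinase, at -0.32, with every KO library below every het library (limma adjusted p 0.887). Genotypes were apart for 2 of the 23 with KO higher and for 1 with KO lower, beside 12.7% of all tested genes in either direction. In this list 12 genes (52.2%) had their highest value in KO replicate 2, beside 20.6% of all tested genes.

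Of 17 FGF receptors and response genes, 5 were above and 12 below 0, with a median of -0.07. Spry2, a feedback inhibitor of receptor tyrosine kinases, had the highest estimate at 0.42 because of 2949 normalized counts in KO replicate 3, against 750.0 to 1143 elsewhere. Its relative Spred2 had the lowest estimate at -0.73, with 278 in KO replicate 2 and 51.0 in KO replicate 3. Neither passed (limma adjusted p-values of 0.920 and 0.885). In this list 5 genes (29.4%) peaked in KO replicate 2, beside 20.6% of all tested genes.

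Of the 10 GDNF-responsive genes, 7 were above and 3 below 0 (median log2 fold change 0.04). Their estimates ran from -0.24 for Mycn to 0.86 for Hoxc4, and neither passed (limma adjusted p-values of 0.943 and 0.873). In 6 of the 10 the highest value was in KO replicate 2, beside 20.6% of all tested genes, and these 6 were also at least 2-fold above KO replicate 3. They were Bcl6b, Egr2, Egr3, Mycn, Nefm and Pou3f1, of which all but Mycn were named after their values were seen. Bcl6b, a repressor that GDNF induces in stem cells, had 1478, 1375 and 685 normalized counts in het and 927, 3023 and 428 in KO. This order of libraries matches that of Gfra1, with replicate 3 low in both genotypes. Egr3, an immediate early gene, had 163, 141 and 138 in het and 103, 418 and 164 in KO.

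In the list of SALL and PLZF relatives and corepressors, 18 genes were tested, 9 were above and 9 below 0 and the median was 0.00. Sall2 had 281, 327 and 556 normalized counts in het and 576, 675 and 665 in KO (log2 fold change 0.78, SE 0.30, limma adjusted p 0.609). Zbtb20 had 2445, 2003 and 2656 in het and 3412, 3288 and 3617 in KO (0.55, SE 0.20, limma adjusted p 0.578). These were the only 2 of the 18 whose genotypes did not overlap, beside 12.7% of all tested genes, and the call was not made across genes. Zbtb7b had the lowest estimate of the list, -0.84, with 21.6 normalized counts in KO replicate 3 and 144 to 256 in the other libraries (limma adjusted p 0.898). Of 6 ID and E protein genes, 2 were above and 4 below 0, from Id2 at -0.65 to Tcf4 at 0.09 (median -0.17, limma adjusted p-values of 0.842 and 0.973), so ID4's relatives showed no call either.

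Of 16 genes of the deadenylase machinery through which NANOS proteins act, 12 were above and 4 below 0 with a median of 0.09, and the estimates ran from Cnot3 at -0.25 to Pum2, which encodes an RNA-binding partner of NANOS proteins, at 0.43 (limma adjusted p-values of 0.943 and 0.826). KO replicate 2 was at least 2-fold above KO replicate 3 for 1 of the 16 (Ddx6, named after its values were seen), beside 16.1% of all tested genes.

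Other genes of undifferentiated spermatogonia had a median of -0.07 over 23 tested genes, 8 above and 15 below 0, and 3 with an unadjusted limma p under 0.05 (6.86% of all tested genes). The same 3 had genotypes that did not overlap, beside 12.7% of all tested genes. Foxc2, a forkhead gene of quiescent stem cells, had 7.63, 40.6 and 35.1 normalized counts in het and 46.5, 277 and 59.8 in KO (log2 fold change 1.98, SE 0.78, limma adjusted p 0.644). Its KO libraries were all above het, and KO replicate 2 was again the highest. Upp1, a uridine phosphorylase gene, had a log2 fold change of 0.58, again with every KO library above every het library (SE 0.24, limma adjusted p 0.672). The lowest estimate was -0.59 for Sox3, which had overlapping libraries (limma adjusted p 0.937). Of the 23, 10 (43.5%) had their highest value in KO replicate 2, beside 20.6% of all tested genes. Lin28a, a pluripotency-associated RNA-binding gene, had 702, 1031 and 616 normalized counts in het and 1253, 1594 and 1183 in KO. Its genotypes did not overlap either (log2 fold change 0.80, SE 0.26, limma adjusted p 0.442).

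**Figure D4:**
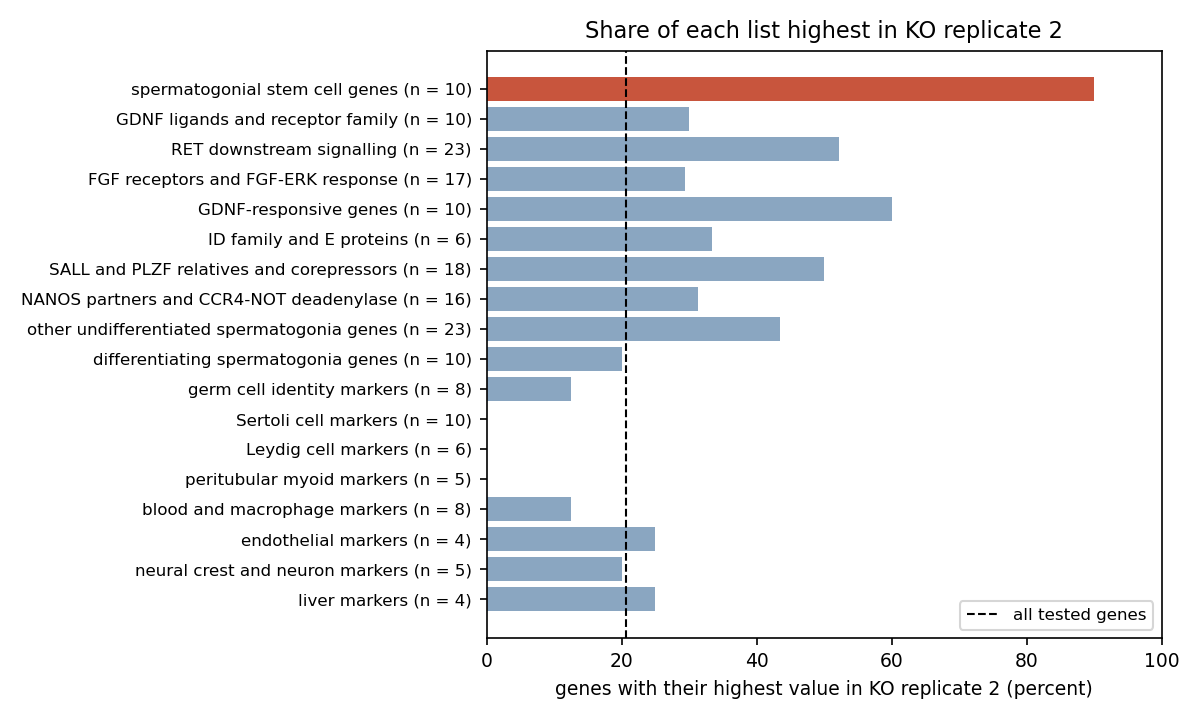
Percent of the tested genes of each list whose highest value of the 6 libraries was in KO replicate 2, with the same percent over all tested genes as a dashed line (20.6%). The 10 stem cell genes (red, 9 of 10) have the longest bar, followed by the GDNF-responsive genes (6 of 10). Sertoli, Leydig and myoid markers have no gene there.

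Pattern likeness over the 6 libraries was measured as Pearson's r of log2(normalized count + 1) against protein-coding genes with a mean of at least 100, as a description only. Gfra1 was most like Spata13 (r = 0.997), Anxa7 (0.996) and Htra3 (0.995) among 14060 genes, of which 269 had r above 0.9. Etv5 was most like Sh2b3 (0.997), an adaptor that dampens cytokine signalling, Mapk8 (0.993) and Nelfb (0.991). For Nanos2 the closest were Agtrap (0.986), S100pbp (0.975) and Cyp2r1 (0.970). With 6 libraries, so many genes reach high values that the names carry no more than the order of the libraries. Among the stem cell genes, the 36 pairs without Eomes had a median r of 0.74 (0.26 to 0.97), and the 9 pairs with Eomes had a median of -0.11 (-0.62 to 0.31). All pairs share the same libraries and KO replicate 2.

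The sequence upstream of the start sites is shown, from RefSeq (GRCm38.p6), for 4 of the genes with their highest value in KO replicate 2. For Nanos2 that value was only 1.17 times the next highest library. RefSeq windows were matched for 7 of the 10 genes. The 250 bases before the start were searched, and bases inside GENCODE exons are not printed. Capitals mark E-boxes (CANNTG on either strand), the sites bound by the E proteins that ID4 holds back.
Nanos3 (chr8:84176553-84176802, minus strand): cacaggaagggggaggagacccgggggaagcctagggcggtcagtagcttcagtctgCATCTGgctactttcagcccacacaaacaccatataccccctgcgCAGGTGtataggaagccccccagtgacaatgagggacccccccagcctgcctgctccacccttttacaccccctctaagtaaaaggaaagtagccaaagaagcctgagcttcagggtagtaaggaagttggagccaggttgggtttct
Nanos2 (chr7:18987274-18987399, plus strand): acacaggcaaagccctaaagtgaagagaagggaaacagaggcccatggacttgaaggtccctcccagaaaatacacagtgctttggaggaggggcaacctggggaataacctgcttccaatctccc
Lhx1 (chr11:84525536-84525784, minus strand): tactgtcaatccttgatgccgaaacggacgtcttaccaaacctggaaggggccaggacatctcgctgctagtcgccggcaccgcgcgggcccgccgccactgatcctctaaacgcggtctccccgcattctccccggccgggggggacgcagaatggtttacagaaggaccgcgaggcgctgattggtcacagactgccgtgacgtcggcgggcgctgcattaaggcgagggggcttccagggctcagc
Id4 (chr13:48260866-48261115, plus strand): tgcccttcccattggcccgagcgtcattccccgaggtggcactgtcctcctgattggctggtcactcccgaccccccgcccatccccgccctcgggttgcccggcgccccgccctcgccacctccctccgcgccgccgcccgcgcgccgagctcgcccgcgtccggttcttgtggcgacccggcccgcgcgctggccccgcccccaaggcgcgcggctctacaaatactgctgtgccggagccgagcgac

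The windows differed in composition. CpG dinucleotides numbered 35 in the 250 bases of Id4 and 26 in those of Lhx1, but 3 in Nanos3 and 0 in Nanos2, with a median of 6 over 32851 RefSeq windows. Nanos3 held 2 E-boxes and Gfra1 held 3, the windows at 2 starts of Etv5 held 2 and 0, and 0 were found in those of Nanos2, Lhx1, Id4 and Eomes. Of all windows, 66.2% held at least 1. The ETS core CCGGAA, searched on both strands as a motif of the ETV5 family, was present once in the Gfra1 window and in 3952 of the 32851 windows. A match of letters does not show that a factor binds there.

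TE copies near the genes were examined because MORC1 acts on TEs. The TE table lists 80 copies within the 10 genes or within 10 kb of them, 55 of these inside the genes, and Sall4 and Eomes had none. Of the 80, 12 reached a mean of 10 normalized counts and were tested, and 0 of these 12 were called, beside 16.3% of all 49781 tested copies. A tested copy lay at 8 of the 10 genes, as at 60.4% of tested genes, and a called copy at 0 of the 10, beside 7.04%. The most abundant, a copy of 221 bp on chromosome 11 (84511368 to 84511588) at 6696 bp from Lhx1, had 649.7, 612 and 345 normalized counts in het and 417, 287 and 313 in KO (log2 fold change -0.62, SE 0.37, limma adjusted p 0.354). Its highest value was in het and not in KO replicate 2, unlike that of Lhx1. A copy of 152 bp opposite in strand to Etv5 and overlapping an exon of it (chromosome 16 from 22382249 to 22382400) had 424, 501 and 139.9 in het and 319, 299.5 and 143 in KO. Its low libraries were those of Etv5 itself, replicate 3 of each genotype, and the log2 fold change was -0.37 (SE 0.51, limma adjusted p 0.741). Values of TE copies were scaled by size factors of their own, so their fold changes are not on the scale of the genes.

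Within 50 kb of the 10 genes, 33 copies were tested and 3 were called, all higher in KO, a smaller share than the 15.6% of all tested copies called higher. Downstream of Etv5, at 29.4 kb, a copy of 312 bp (chromosome 16 from 22351584 to 22351895, minus strand) had 11.6, 4.49 and 7.67 normalized counts in het and 95.4, 132 and 207 in KO (log2 fold change 4.04, SE 0.51, limma adjusted p 0.000599). A neighbouring copy of 871 bp (22355108 to 22355978) had 8.44, 21.3 and 0 in het and 77.3, 85.9 and 79.5 in KO (log2 fold change 3.78, SE 0.93, limma adjusted p 0.0160). The third, a copy of 5830 bp at 31.1 kb downstream of Id4 (chromosome 13 from 48297081 to 48302910, plus strand), had 24.3, 15.7 and 25.9 in het and 82.0, 76.6 and 49.6 in KO (log2 fold change 1.62, SE 0.45, limma adjusted p 0.0296). All 3 copies were higher in each KO library than in any het library, while the estimates for Etv5 and Id4 themselves were -0.03 and -0.08. TE copies and genes were divided by different size factors, so these fold changes are not on the same scale. In KO replicate 2, a read counted as 0.774 normalized counts for TE copies and 1.03 for genes. In het replicate 2 it counted as 1.12 and 0.966.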

How the data were processed

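RNA of P0 gonocytes was measured in 3 Morc1 het and 3 KO libraries. Per the labels' protocols, cDNA was amplified from low input before library preparation. The submitters' processing notes name bcl2fastq 2.20, cutadapt 1.18, HISAT2 2.1.0, featureCounts 1.5.2 and DESeq2 1.26.0, and the builds mm10 and GRCm38, and strand and multi-mapping settings are not given in the sources used here. Both deposited tables, of genes and of TE copies, hold a signal: read counts that the authors divided by 1 size factor per library, called normalized counts here. The size factors differed between the tables. In every column 100% of values were whole multiples of 1 step (tolerance 0.001 reads), which returned the reads used in the count tests. For KO replicate 1 of the gene table that step is too near 1 for an automatic check.

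Genes whose mean reached 10 normalized counts were fitted with limma 3.58.1 (R 4.3.3; log2(normalized count + 1), eBayes with trend, two-sided, Benjamini-Hochberg over all tested genes; TE copies likewise), without covariates. Fold changes on this scale understate low genes. Alternatives were edgeR 4.0.16 and DESeq2 1.42.0 on recovered reads, other pseudocounts, filters and scalings, and each library left out; the code was tested on simulated data. The 10 genes and all lists were chosen with earlier results of these data known. Named genes are the 10, Morc1, and of each list those with an unadjusted p under 0.05 or the extreme estimates, except 1 gene that is not reported here. Replicates did not agree within counting noise. Intervals cover the spread between libraries only.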

Additional observations from a re-analysis of the deposited data

How the results depend on the processing

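The 10 genes had 0 calls in each of 17 alternative fits, and their smallest adjusted p in any was 0.196. Of 169 alternative estimates for single genes, 143 kept their sign and 26 did not. Quantile normalization turned Sall4 to -0.0085 and Etv5 to 0.012. Id4 and Zbtb16 turned to 0.32 and 0.56 with edgeR under either scaling and with DESeq2, which gave the same rounded values; edgeR also put Nanos3 at 1.40 and Lhx1 at 0.99, with DESeq2 at 1.41 and 0.99 (adjusted p 0.574 and 0.783). Leaving out each library in turn gave ranges of -1.18 to 0.15 for Gfra1, -1.15 to 0.20 for Ret, -0.83 to 0.40 for Id4, -1.21 to 0.55 for Zbtb16, -0.37 to 0.33 for Sall4, -0.12 to 1.40 for Nanos3, -0.48 to 0.40 for Etv5 and -0.28 to 0.99 for Lhx1; in this family the lowest values came without KO replicate 2, except for Etv5 (without het replicate 3). An alternative added after seeing the data left out het replicate 3 and KO replicate 2 together. These were the lowest het library for 5 of the 10 genes and the highest of all libraries for 9 (41.8% and 20.6% of tested genes). Leaving them out thus moves estimates down in a known direction, and the values are a description. Sall4 was then at -0.44, Nanos3 at -0.35, Lhx1 at -0.28, Ret at -1.32, Zbtb16 at -1.22, Etv5 at -0.85, Id4 at -0.62 and Gfra1 at -1.81 (limma adjusted p 0.196). Nanos2 was at 0.61 and Eomes at 0.66, and 72 higher and 11 lower genes were called of all. The count of TE copies called was 0 of 12 tested within 10 kb of the genes and 3 of 33 tested within 50 kb. Within 10 kb it stayed at 0 with TE reads scaled by the gene size factors. The wider window adds both more tested copies and more distant ones. Of all tested genes, limma called 112 higher and 11 lower, 70 and 5 with a pseudocount of 0.1, 177 and 12 with 10, 108 and 3 without trend, 400 and 65 with DESeq2 and between 17 and 105 higher and 1 and 7 lower with each library left out. Libraries with the same replicate number in both genotypes had correlations of deviations of 0.138, -0.163 and -0.0438 for numbers 1 to 3. Those with different numbers had -0.20 to 0.21, and with 3 libraries per genotype such values cannot show whether the libraries are paired. With a replicate block, limma called 0 of the 10 genes and 64 higher and 5 lower genes of all. Nanos2 had no estimate at a minimum mean of 50.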

Other observations

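Genes of differentiating spermatogonia, 10 of which were tested, had 0 calls, a median log2 fold change of -0.05 and 3 estimates above 0 and 7 below. The extremes were Rarb at 0.69 and Dnmt3b at -0.43 (limma adjusted p-values of 0.842 and 0.923). Kit and Ccnd2, named after their values were seen, lay at opposite ends in KO replicate 2 and do not stand for the list. In it, 2 of the 10 genes had their highest value in KO replicate 2, beside 20.6% of all tested genes. Only 1 of the 10 had its lowest value there, beside 19.5%. Kit, the receptor that marks the onset of differentiation, had 2759, 3098 and 1902 normalized counts in het and 4073, 1694 and 3283 in KO, lowest in KO replicate 2. Ccnd2, a D-type cyclin, had 13688, 12559 and 16223 in het and 7455, 27029 and 8576 in KO, highest in that library like 9 of the 10 stem cell genes. The libraries of the genotypes overlapped for both.

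Marker lists of other cells had 0 calls with limma. Medians of the log2 fold change were 0.05 for 8 germ cell markers, -0.68 for 10 Sertoli markers (3 with an unadjusted limma p under 0.05, all lower in KO), -1.79 for 6 Leydig markers, 0.21 for 5 myoid, 0.16 for 8 blood and macrophage, 0.16 for 4 endothelial (1 with an unadjusted p under 0.05, Tek, higher in KO), 0.02 for 5 neural and -0.59 for 4 liver markers.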
